A study of Mus musculus with 7 samples.

Results

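Tuft cells are rare chemosensory cells scattered through the epithelium of the small intestine. They read the contents of the gut with the signalling chain of taste cells, in which a G protein activates phospholipase C and calcium opens a cation channel, and they release a cytokine and lipid mediators that start type 2 immune responses to worms and protists. Their identity depends on the POU-domain transcription factor Pou2f3. They are a different secretory lineage from Paneth cells, the antimicrobial cells of the crypt base.

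The genes followed here are 10 known tuft cell genes: Dclk1, Trpm5, Pou2f3, Gfi1b, Plcb2, Hpgds, Il25, Alox5ap, Ptgs1 and Avil. They were chosen by name, from what is known of tuft cells, and read from the transcript cluster (the set of probes that stands for a gene on this array) with the highest mean among those carrying the symbol. Of the 10, 9 had a named cluster, each exactly 1, out of 19938 named genes, and all 9 lay above the filter on low values, a mean log2 value of 6.79, which kept 13409 genes. Ptgs1, which makes the common precursor of prostaglandins, had no cluster named for it and is not analysed here.

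The values come from 7 arrays of total RNA from Paneth cells sorted by flow cytometry, 1 array per sample. In the calorie restricted group (n = 4) mice aged 4 months received 60% of the calories of freely fed mice for 4 to 7 weeks, and in the ad libitum group (n = 3) mice of the same age ate freely. The labels call the samples biological replicates but do not say how many mice each holds, nor the strain or sex. All arrays carried high signal for Paneth products such as Lyz1 (14.31 ± 0.04 and 14.31 ± 0.02) and Cd24a (13.38 ± 0.12 and 13.41 ± 0.04), and also for markers of other cells, such as the goblet cell mucin Muc2 (13.90 ± 0.06 and 14.10 ± 0.02) and the enteroendocrine granule protein Chga (12.89 ± 0.52 and 12.63 ± 0.42).

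The promoter sequences of 7 of the 10 genes were at hand (RefSeq, build GRCm38.p6), and they are shown where they hold the letters that POU factors bind. The octamer ATGCAAAT, searched on both strands from 250 bases before to 50 bases after the start site, occurred in 1 of 8 member promoters, that of Hpgds, and in 1.74% of 32851 promoters of the same length. The octamer begins 174 bases before the start site and is in capitals in the sequence of the 250 bases before the start, on the minus strand at chr6:65144731-65144980. A search for the first 7 letters alone, ATGCAAA, made after that result was seen, also matched Avil at 115 bases before the start (as TTTGCAT, the other strand) and at 15 bases before it. Both are in capitals in its 250 bases, on the plus strand at chr10:127000459-127000708. This shorter string occurred in 4.63% of all promoters. A match describes letters only and is no evidence of binding.
Hpgds: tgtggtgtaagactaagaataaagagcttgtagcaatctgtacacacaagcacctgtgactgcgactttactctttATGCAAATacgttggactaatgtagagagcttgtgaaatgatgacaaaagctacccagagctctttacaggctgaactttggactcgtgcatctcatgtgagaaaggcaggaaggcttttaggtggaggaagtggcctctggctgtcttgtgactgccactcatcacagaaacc
Avil: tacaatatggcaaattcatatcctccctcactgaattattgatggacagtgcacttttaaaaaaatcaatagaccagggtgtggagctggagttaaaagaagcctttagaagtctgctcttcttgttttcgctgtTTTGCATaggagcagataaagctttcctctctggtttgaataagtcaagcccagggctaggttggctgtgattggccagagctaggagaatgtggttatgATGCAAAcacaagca

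Most of the tuft cell genes had similar courses over the 7 arrays, and all 9 were lowest in the same calorie restricted sample. In 9 of 9 genes the lowest of the 7 arrays was calorie restricted replicate 1, which was the lowest array for 12.8% of all genes tested. In 7 of 9 the highest array was calorie restricted replicate 2 or ad libitum replicate 2, 1 of each diet, and in Gfi1b and Il25 it was ad libitum replicate 1. The genes are described below by role, with deposited log2 values in replicate order for calorie restriction and then for ad libitum feeding. In RNA from many cells, fewer tuft cells and less RNA of these genes per cell cannot be told apart.

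The transcription factors set the identity of the cell. Pou2f3 (chromosome 9, cluster 10592705), without which mice lack tuft cells, stood at 8.32, 9.25, 8.77 and 8.92 under calorie restriction and at 8.94, 9.28 and 8.48 under ad libitum feeding. The diets overlapped, and the lowest and highest array of all 7 differed 1.96-fold. Gfi1b (chromosome 2, cluster 10481304), a zinc-finger repressor that also acts in red cell and platelet precursors, lay in a narrow band at 7.99, 8.35, 8.38 and 8.27 against 8.42, 8.40 and 8.10. Its whole range was 1.34-fold.

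The next genes belong to sensing and to the shape of the cell. Dclk1 (chromosome 3, cluster 10492136), a microtubule-associated kinase used as the standard tuft cell marker in mice, measured 8.80, 10.31, 9.72 and 9.82 under calorie restriction and 9.75, 10.35 and 9.66 under ad libitum feeding. Without replicate 1 the calorie restricted values fall inside the range of the ad libitum ones, and replicate 1 was 0.87 log2 units below the next lowest array. Trpm5 (chromosome 7, cluster 10569399), the calcium-gated cation channel of taste transduction, followed the same course at 8.21, 9.54, 8.91 and 8.99 against 9.05, 9.49 and 8.76. Plcb2 (chromosome 2, cluster 10486119), the phospholipase C that acts upstream of that channel, measured 7.83, 8.73, 8.01 and 8.33 against 8.72, 9.42 and 8.61. Here 3 of the 4 calorie restricted values lay below all 3 ad libitum values, and only replicate 2 overlapped them. Avil (chromosome 10, cluster 10366774), or advillin, an actin-binding protein of the villin family, measured 8.40, 9.79, 9.09 and 9.30 against 9.40, 9.70 and 8.98, which again left replicate 1 alone below the rest, by 0.58 log2 units.

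The effector genes make the mediators of the tuft cell. Alox5ap (chromosome 5, cluster 10527638), which presents arachidonic acid to the lipoxygenase of leukotriene synthesis, measured 8.54, 10.06, 9.02 and 9.35 under calorie restriction and 9.75, 9.84 and 9.13 under ad libitum feeding. Hpgds (chromosome 6, cluster 10545101), the prostaglandin D synthase found in blood cells and tuft cells, measured 6.63, 7.92, 6.93 and 7.57 against 7.86, 8.20 and 7.48. The calorie restricted replicates 1 and 3 of Hpgds lay below every ad libitum array, and replicate 1 was below the filter level of 6.79. Il25 (chromosome 14, cluster 10415127), the cytokine that tuft cells send to innate lymphoid cells, stayed at 7.04, 7.12, 7.29 and 7.31 against 7.43, 7.35 and 7.16. Its values lay close to the filter level, and no detection call is used here.

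**Figure D1:**
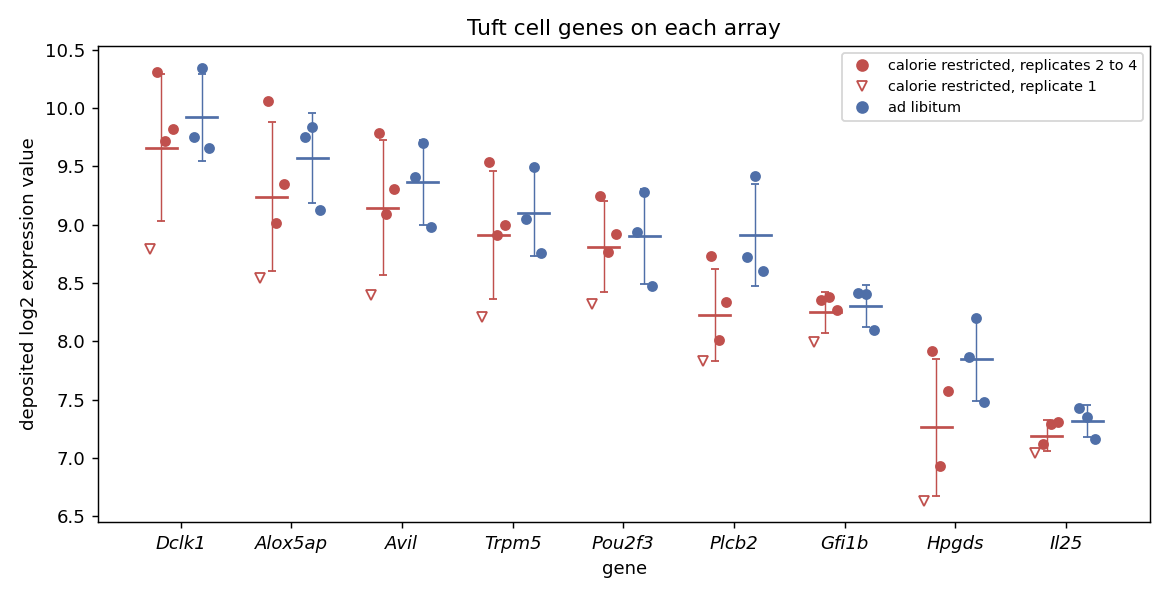
Deposited log2 expression value (vertical axis) of 9 tuft cell genes on each of the 7 arrays, with the mean (bar) and SD (whisker) of each diet. The open triangle, calorie restricted replicate 1, is the lowest point in every gene, and the points of the diets overlap in all 9.

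The question of the design is what the diet changes. No tuft cell gene passed the test: 0 of 9 were called in either direction (limma, Benjamini-Hochberg adjusted p below 0.05), where 0.664% of all genes tested were called, 0.656% higher and 0.00746% lower under calorie restriction. At an unadjusted p below 0.05 there was 1, Plcb2, which was lower, where 9.3% of all genes tested were in either direction and 2.41% were lower. The groups overlapped in all 9 genes, while in 10.2% of genes tested the diets were fully apart. All 9 differences, calorie restricted minus ad libitum, were below 0, with a median of -0.22 log2 units, against 45.8% of all genes tested and a median over them of 0.01. After median centring of the arrays, 2 of the 9, Pou2f3 and Gfi1b, were no longer below 0, and the median of the members was -0.13. Centring also moved all genes tested, of which 23.2% were then below 0, with a median of 0.10. Without calorie restricted replicate 1 only 4 of 9 members were below 0, against 45.3% of all genes tested.

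Plcb2 had the smallest p. It measured 8.22 ± 0.40 under calorie restriction (SD, n = 4) and 8.91 ± 0.44 under ad libitum feeding (SD, n = 3), a difference of -0.69 ± 0.26 log2 units (SE) with a 95% interval of -1.28 to -0.10 and an adjusted p of 0.437 in limma. This is 0.62-fold. Hpgds was next, at 7.26 ± 0.59 against 7.85 ± 0.36, with a difference of -0.58 and a 95% interval of -1.30 to 0.13 (limma adjusted p = 0.655). The gene whose product acts with arachidonic acid, Alox5ap, differed by -0.33 (-1.10 to 0.44), and Dclk1 by -0.26 (-1.02 to 0.50). The intervals of Hpgds, Alox5ap and Dclk1 reach below -1 log2 unit and also hold 0.

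The intervals were narrower for some members. Gfi1b differed by -0.06, with a 95% interval of -0.36 to 0.24, and Il25 by -0.13 (-0.36 to 0.11). Pou2f3 differed by -0.09 (-0.65 to 0.48), Trpm5 by -0.19 (-0.88 to 0.50) and Avil by -0.22 (-0.93 to 0.49). The adjusted p of these 5 genes and of Dclk1 and Alox5ap lay between 0.810 and 0.948 in limma.

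A single array decided the direction of most of these differences. Without calorie restricted replicate 1 the median over the 9 genes was 0.03 in place of -0.22, and Dclk1 (0.03), Trpm5 (0.05), Pou2f3 (0.08), Gfi1b (0.03) and Avil (0.03) turned to the other side of 0. Plcb2 kept a difference of -0.56, Hpgds -0.37, Alox5ap -0.10 and Il25 -0.08 there. Without calorie restricted replicate 2, the highest of its diet in 7 of the 9 genes, the median was -0.43, and without ad libitum replicate 2 it was -0.05. Plcb2 was the gene with the smallest p in all 7 fits that left out an array, with unadjusted p from 0.00781 to 0.114 and limma adjusted p from 0.307 to 0.964.

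**Figure D2:**
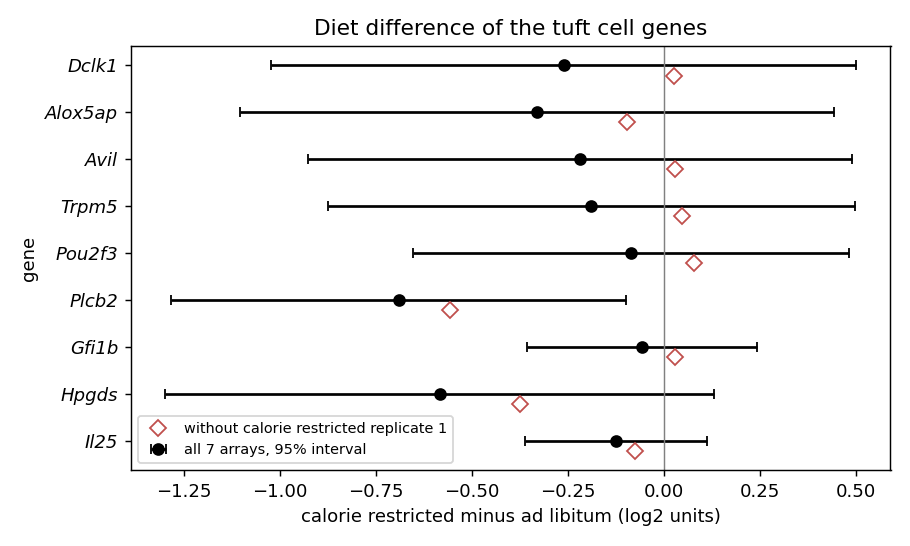
Difference between the diets (horizontal axis, log2 units) for 9 tuft cell genes with all 7 arrays (filled points with 95% intervals) and without calorie restricted replicate 1 (open diamonds). Leaving out that array moved 5 genes from below 0 to above it, while Plcb2 stayed at -0.56.

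Arrays of the same diet differed more in these genes than in most. The SD within a diet, pooled over both, had a median of 0.48 log2 units over the 9 genes and of 0.15 over all genes tested. For 7 of the 9 it exceeded 0.33, the 90th percentile of all genes tested, and it ranged from 0.39 in Pou2f3 to 0.55 in Alox5ap. Gfi1b (0.18) and Il25 (0.14) were the exceptions. For 6 of the 9 the highest array was more than 1 log2 unit above the lowest, which held for 8.84% of genes tested. Without calorie restricted replicate 1 it held for 3 of the 9, Alox5ap, Hpgds and Plcb2, and for 8.41% of genes tested. Without that array the median SD of the members was 0.36, against 0.15 over all genes tested, and 5 of the 9 exceeded the 90th percentile. The widest ranges were 3.01-fold in Plcb2 and 2.96-fold in Hpgds, and the smallest was 1.31-fold in Il25.

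**Figure D3:**
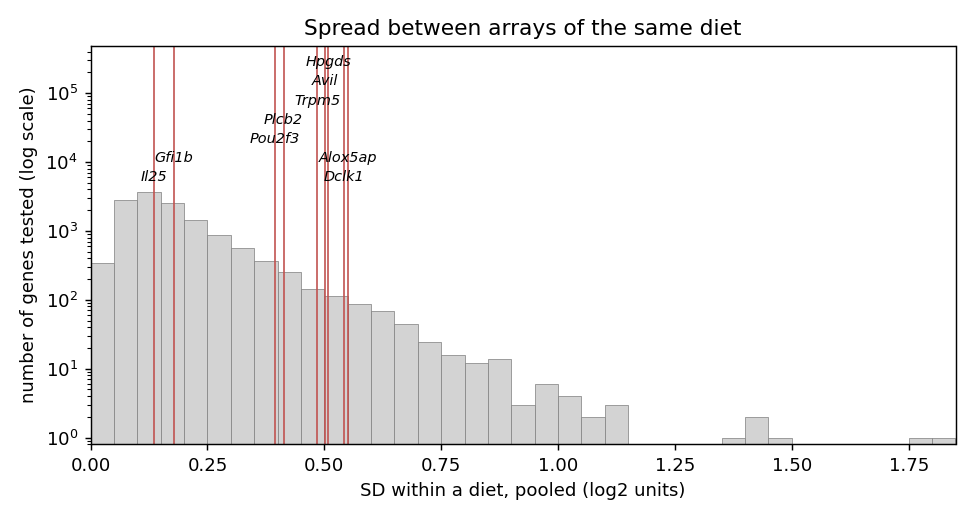
Histogram of the SD between arrays of the same diet, pooled over the diets (horizontal axis, log2 units), for 13409 genes (vertical axis, number of genes on a log scale). Red lines mark the 9 tuft cell genes, of which 7 lie above 0.33, the 90th percentile.

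Most members had a common course over the arrays, which was looser for Gfi1b and Il25. Over the 7 arrays, the Pearson r between 2 members had a median of 0.83 over the 36 pairs, from 0.46 to 0.99. On deviations from the diet means the 36 pairs ran from 0.22 to 0.99. Without calorie restricted replicate 1 they ran from -0.17 to 0.98 with a median of 0.71, and 34 of the 36 were above 0. Among the 21 pairs that leave out Gfi1b and Il25, r ran from 0.75 to 0.99. These genes have the smallest range and the lowest r with the mean of the other members (0.79 and 0.53). The higher r of the 21 pairs follows in part from leaving them out. On deviations from the diet means those 21 pairs ran from 0.87 to 0.99. Without calorie restricted replicate 1 they ran from 0.60 to 0.98. Avil and Trpm5 were closest to the mean of the other members (r = 0.98 and 0.97, and 0.95 and 0.93 without that array). Il25 was the least close, at 0.53, and at 0.08 without that array, and the 8 pairs with Gfi1b then had a median of 0.55, from 0.21 to 0.72. These values describe 7 arrays that all genes share, and they are given without a test.

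The genes most like the members over the arrays were ranked among 1847 genes with an SD over arrays of 0.3 or more. The first 8 were Nebl (r = 0.98), Strip2 (0.96), Spib (0.96), Pik3cg (0.95), Pik3r5 (0.94), Dgki (0.93), Alox5 (0.92) and Pygl (0.91). Of these, 5 (Strip2, Spib, Pik3cg, Pik3r5 and Alox5) are in the lists of other tuft cell genes described below. Nebl encodes the actin-binding protein nebulette, and its values were 6.83, 7.77, 7.12 and 7.47 under calorie restriction and 7.64, 7.91 and 7.42 under ad libitum feeding. Spib is an Ets transcription factor known from lymphoid cells, and its values were 8.04, 9.51, 8.70 and 8.81 against 9.08, 9.18 and 8.64. Pik3cg and Pik3r5 encode the catalytic and a regulatory subunit of the same phosphoinositide kinase. Alox5 is the lipoxygenase that Alox5ap serves, and it measured 7.56, 8.94, 8.44 and 8.72 against 8.65, 8.82 and 7.97. All 8 were lowest in calorie restricted replicate 1, which largely follows from how they were picked, since that array deviates most in the course they were matched to. Without that array r stayed at 0.8 or more in 6 of the 8, and was 0.79 for Alox5 and for Pygl, the liver-type glycogen phosphorylase.

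**Figure D4:**
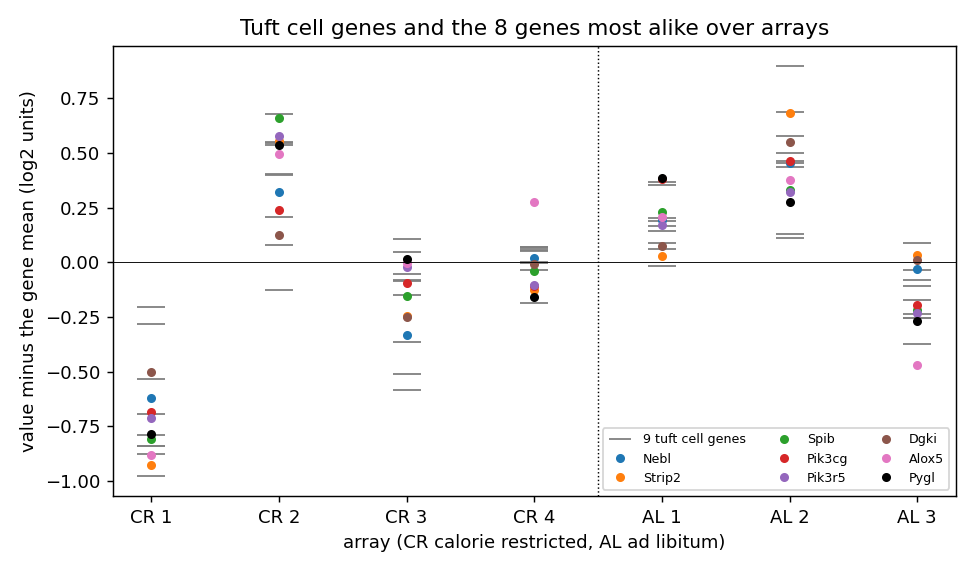
Value on each array minus the gene's own mean over the 7 arrays (vertical axis, log2 units) for the 9 tuft cell genes (grey dashes) and the 8 genes most like them (coloured points), which were picked for this likeness. Calorie restricted replicate 1 is low for all of them, and calorie restricted replicate 2 and ad libitum replicate 2 are high for most.

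Other genes known from tuft cells were listed by role, with earlier results of these data known, so the counts below are descriptive. Of 74 such genes in 6 lists, 72 were measured and 62 passed the filter. In the diet test 0 of the 62 were called (limma, adjusted p below 0.05), against 0.664% of all genes tested. At an unadjusted p below 0.05 there were 2, Pde2a and Nrep, where 9.3% of all genes tested were. The difference was below 0 in 43 of the 62 (69.4%), against 45.8% of all genes tested, with a median of -0.06. Of the 62, 25 (40.3%) were lowest in calorie restricted replicate 1, against 12.8% of all genes tested. The count of differences below 0 was not repeated without that array, which decided the sign of most members. It therefore cannot show a lean under the diet that is separate from that array. Of the 23 that varied enough to be ranked, 14 had an r of 0.8 or more with the members, and these 14 stood among 22 such genes in all. Without calorie restricted replicate 1 the numbers were 4 of 8.

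Genes of blood-cell signalling, which tuft cells share with leukocytes, followed the members most. Of 14 tested, 9 were lowest in calorie restricted replicate 1, 0 were called, and the median difference was -0.07. The list mean was 8.37, 9.22, 8.89 and 8.80 under calorie restriction and 8.94, 9.10 and 8.63 under ad libitum feeding (highest in calorie restricted replicate 2). Its lowest array was that of the members, while the highest array of the members was ad libitum replicate 2. Vav1, an exchange factor of antigen receptor signalling, differed by -0.26 ± 0.23 (SE). Pik3cg differed by -0.38 ± 0.23, and the phosphatase gene Ptpn6 by 0.18 ± 0.12. The membrane protein genes Tmem176b (-0.04 ± 0.08) and Tmem176a (0.07 ± 0.11) had differences within 1 SE of 0.

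The taste and sensing list was mixed. Of 11 tested, 0 were called and 3 were lowest in calorie restricted replicate 1, and the median difference was -0.05. The phosphodiesterase Pde2a was at 10.09 ± 0.38 against 10.75 ± 0.44 (limma adjusted p = 0.454). The signalling regulator Rgs2 differed by 0.46 ± 0.28 (SE), and the taste receptor subunit Tas1r3 by -0.22 ± 0.12. Itpr3, the calcium release channel of the taste pathway, and the G protein subunit Gnai2 differed by 0.13 ± 0.11 and 0.05 ± 0.08. Rgs13, a regulator of G protein signalling known from tuft cells and named here after its values were seen, measured 9.77, 11.47, 10.86 and 10.55 against 10.82, 10.89 and 10.42. Its r with the members was 0.85, and 0.64 without calorie restricted replicate 1. Gnat3, the taste G protein, was below the filter level on all 7 arrays, as its highest value was 5.68.

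The eicosanoid list had 0 of 9 tested genes called, with a median difference of -0.01. The phospholipase Pla2g4a, which releases arachidonic acid, differed by -0.33 ± 0.15 (SE, limma adjusted p = 0.578). The leukotriene hydrolase Lta4h (0.19 ± 0.18), the prostaglandin-degrading Hpgd (0.15 ± 0.16) and the co-chaperone Ptges3 (0.08 ± 0.08) had differences within 2 SE of 0. The thromboxane synthase Tbxas1 lay below the filter level, at 6.26 ± 0.12 against 6.45 ± 0.08. Of the 4 tested genes of the type 2 circuit 0 were called, with a median of -0.08. Il17rb, a subunit of the receptor for the Il25 product, was lowest in calorie restricted replicate 1, at 7.66 against 7.86 to 8.09 on the other arrays, and differed between the diets by -0.14 ± 0.11. Il13ra1 (-0.05) and Stat6 (0.05), the receptor subunit and the transcription factor of interleukin 13 signalling, lay nearer 0. The acetylcholine-making enzyme Chat and the alarmin Il33 were below the filter level, and Il33 was at 6.95 ± 0.34 against 6.48 ± 0.25.

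With all arrays as deposited, all 10 genes of the transcription list had a difference below 0, against 45.8% of all genes tested. Their median was -0.19, and 0 were called. Of the 10, 3 were lowest in calorie restricted replicate 1, and Gfi1 (-0.04 ± 0.22, SE) was among those near 0. Whether the shared sign holds without that array or after median centring was not tested. Sox4 (-0.27 ± 0.13, SE), Hmx2 (-0.18 ± 0.14) and Hmx3 (-0.20 ± 0.15) had the smallest p. Atoh1 and Sox9, which Paneth cells also express, had differences of -0.23 ± 0.19 and -0.02 ± 0.16. In the last list, of cytoskeletal and other tuft genes, 0 of 14 were called and the median was -0.05. Nrep, a neuronal regeneration protein, had the smallest p of all 62 genes, at 8.06 ± 0.22 against 8.66 ± 0.19 (limma adjusted p = 0.167). All 4 of its calorie restricted values, 8.02, 8.38, 7.90 and 7.93, lay below the 3 ad libitum values, 8.46, 8.82 and 8.71. This largely follows from picking it by its p, and the diets were fully apart in 10.2% of all genes tested. The heme-binding protein gene Hebp1 went the other way, at 0.35 ± 0.16, as did the actin bundler Espn, at 0.19 ± 0.13. The keratin gene Krt18 (0.08 ± 0.10) and Kctd12 (-0.03 ± 0.17) had differences within 1 SE of 0.

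Several members are also expressed in blood cells, so the markers of these cells are set beside them. Of 19 leukocyte markers measured, 11 had a mean below the filter level, among them Cd53, Laptm5, Fcer1g and Csf1r, and the pan-leukocyte gene Ptprc stood at 6.95. The mean of the 8 that passed ran from 7.45 to 7.61 over the 7 arrays, and the mean of the tuft cell genes from 7.97 to 9.11. The leukocyte mean was lowest in calorie restricted replicate 1 and highest in ad libitum replicate 2, as was the mean of the tuft cell genes. Its r with the members was 0.76, and the r of the 8 single genes ran from -0.24 in Tyrobp to 0.78 in Ptprc. The part of leukocytes in the tuft cell values was not tested. Of the 8, 0 were called and 1, Cd8a, had an unadjusted p below 0.05, where 9.3% of all genes tested did. Lcp1, an actin bundler, stood at 10.90 ± 0.28 against 10.81 ± 0.39, and Cd3e differed by -0.07 ± 0.10. Cd8a (-0.22) and Gzmb (0.40, below the filter level) had the smallest p with Cd53. Of 12 mast cell markers 8 were below the filter level, Cpa3, Fcer1a and Ms4a2 among them with means of 5.06, 4.87 and 4.44. Of the 4 others 0 were called, also at an unadjusted p below 0.05, and the receptor kinase gene Kit had a mean of 11.94. Of 6 platelet markers 3 were below the filter level, with Pf4 and Ppbp at 4.62 and 4.65, and 0 were called among Itga2b, Gp9 and Treml1, also at an unadjusted p below 0.05. The mean of these 3 was lowest in calorie restricted replicate 1 (7.23), where 2 of them were lowest, and highest in calorie restricted replicate 4 (7.54). The mean of the 4 mast cell genes was lowest in calorie restricted replicate 4.

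The enterocyte list separated the diets, with 10 of 19 called higher under calorie restriction, including Cyp2b10 (1.79 ± 0.13, SE), Apoc3 (1.54 ± 0.15) and Treh (1.48 ± 0.16). Over all genes tested, 0.656% were called higher. The list was chosen with earlier results of these data known, so its count is no independent evidence of a diet effect. The count was 0 with the ordinary linear model and with the replicate block, 18 with array weights, 6 after quantile normalization and 2 without calorie restricted replicate 1, 2 or 3, while all 19 differences stayed above 0 in every alternative run. Its mean was 12.06, 12.13, 12.19 and 11.98 under calorie restriction and 11.05, 10.42 and 11.14 under ad libitum feeding. Calorie restricted replicate 1, lowest in the tuft cell genes, therefore lay among the other arrays of its diet in enterocyte signal, while ad libitum replicate 2 was lowest in enterocyte signal and highest in the mean of the tuft cell genes. Whether the share of enterocytes takes part in the tuft cell values was not tested.

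Enteroendocrine markers, another rare secretory lineage, varied between arrays too. Their mean was 9.89, 10.58, 10.54 and 9.77 under calorie restriction and 10.27, 9.76 and 9.72 under ad libitum feeding, so calorie restricted replicates 2 and 3 were high, whereas in the tuft cell genes replicate 3 was below the mean of all arrays. Of 16, 0 were called (2 at an unadjusted p below 0.05), and the hormone genes Gcg (0.28 ± 0.10, SE) and Cck (0.30 ± 0.12) and the transcription factor Pax6 (0.33 ± 0.19) had the smallest p. Of the 16, 3 were lowest in calorie restricted replicate 1 (Sst, Pax4 and Pyy, named after their values were seen), and the somatostatin gene Sst had an r of 0.73 with the members, and of 0.38 without that array. The Paneth list mean lay between 12.59 and 13.05 with 0 of 15 called. The goblet list (0 of 8 called) and the stem cell list (0 of 8 called) had means from 12.19 to 12.68 and from 10.65 to 11.22. At an unadjusted p below 0.05 there were 1, 3 and 0 in the Paneth, goblet and stem cell lists. The share over all genes tested was 9.3%. In the Paneth, goblet and stem cell lists 0 genes were lowest in calorie restricted replicate 1, against 12.8% of all genes tested.

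**Figure D5:**
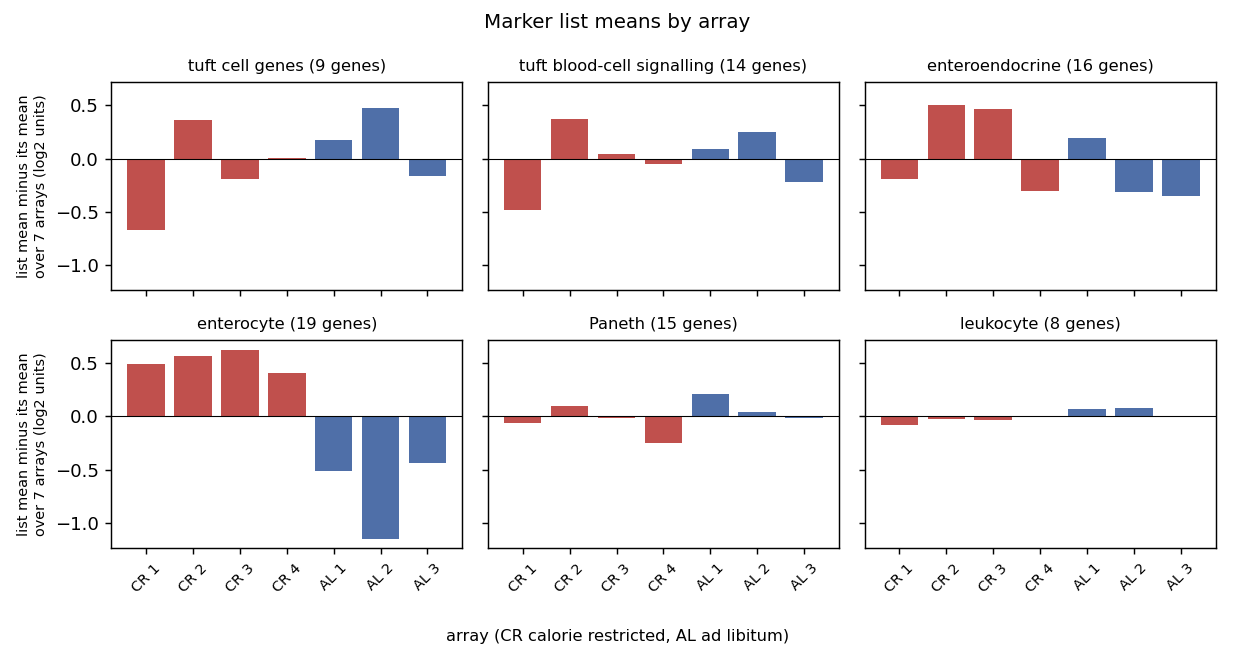
Mean of each marker list on each array minus its own mean over the 7 arrays (vertical axis, log2 units), for calorie restricted (red) and ad libitum (blue) arrays. The tuft cell genes and the blood-cell signalling list dip on calorie restricted replicate 1 and peak on replicate 2 of each diet, while the enterocyte list separates the diets.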

How the data were processed

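Each of the 7 arrays gave 1 deposited log2 value per transcript cluster, which the authors produced in Affymetrix Expression Console (tool named in the submitters' processing notes). Which algorithm and normalization it ran is not given in the sources used here. A log2 scale was inferred from the values (2.97 to 14.67, array medians 7.24 to 7.44), which were used without further scaling. Of 35556 clusters, 21789 had 1 gene symbol in the platform annotation, 1621 had several and 12146 were unnamed here. The brightest cluster per symbol was kept, and genes whose mean fell under the 40th percentile over clusters were dropped. The diet comparison used limma 3.58.1 in R 4.3.3 (lmFit, then eBayes with trend), adjusted over all 13409 genes by Benjamini-Hochberg. The fit was tested on simulated data. The number of arrays limits the precision, and no source says how many mice stand behind an array.

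All measured members were named. From each list the 3 genes with the smallest p and the 2 with the highest mean were taken, and 8 genes by likeness to the members' mean course (Pearson r), while other genes named (Rgs13, Gnat3, Cd24a, Sst, Pax4, Pyy and most blood cell markers below the filter level) were chosen after their values were seen. The members and lists were chosen with earlier results of these data known. Alternatives were other normalizations, filters, cluster rules and variance models, array weights, a block for the replicate number, and each array left out in turn. Figures were drawn with matplotlib (version 3.10.9).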

Additional observations from a re-analysis of the deposited data

How the results depend on the processing

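The count of called tuft cell genes was 0 in all 17 alternatives (limma, or the ordinary linear model), and their median difference lay between -0.43 and 0.03 when single arrays were left out and between -0.27 and -0.13 otherwise. Filters, the cluster rule (each member has 1 cluster) and variance models cannot change a member's difference. They change only its p or whether it is tested, and the median stayed at -0.22 under them. Members changed sign after median centring (Pou2f3 0.00011, Gfi1b 0.029), without calorie restricted replicate 1 (Dclk1 0.027, Trpm5 0.047, Pou2f3 0.079, Gfi1b 0.028, Avil 0.030) and without ad libitum replicate 2 (Trpm5 0.0072, Pou2f3 0.11). At the other end, leaving out an array gave -0.48 for Dclk1, -0.40 for Trpm5, -0.30 for Pou2f3 and -0.16 for Gfi1b. Plcb2, Hpgds, Alox5ap and Il25 kept theirs wherever they were tested, and Hpgds and Il25 fell out at the 60th percentile filter. The lowest adjusted p of any member was 0.07, for Plcb2 with array weights. The number of all genes called, 89, was 53 after quantile normalization, 1355 with array weights, 0 with the ordinary linear model (1318 at an unadjusted p below 0.05), 0 with the replicate number as a block (988 at an unadjusted p below 0.05), and from 12 to 105 without single arrays. The cause of these changes was not tested. The block gave Plcb2 a limma adjusted p of 0.191 and changed no member's call. No label says that its numbers pair the arrays. The r of the deviations of same-numbered arrays (-0.13, -0.27 and -0.55) cannot settle this, since deviations within a diet are tied to one another. Calorie restricted replicate 4 has no ad libitum array of its number. Under the block the members' differences therefore equal those of the fit without it. The mean level of the members stayed between 8.56 and 8.75 and their median pairwise r between 0.71 and 0.92 without single arrays. Il25 and Hpgds lie near the filter level, and no background measure is used here.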
